A study of Homo sapiens with 6 samples.

Results

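The genes described here are the ligands, receptors and SMAD transducers of transforming growth factor beta (TGF-beta) signalling. They are 10 genes chosen by symbol, TGFB1, TGFB2, TGFB3, TGFBR1, TGFBR2, TGFBR3, SMAD2, SMAD3, SMAD4 and SMAD7, out of 57773 Ensembl gene IDs in the deposited table, and all 10 were found in it. The cells were RPE1, a human cell line of retinal pigment epithelium made immortal with telomerase. In one group (3 libraries) the cells had been kept for 24 h with Nutlin-3 at 2.5 µM, and in the other (3 libraries) they had been kept for the same time with DMSO, its solvent. Nutlin-3 is a small molecule that stops MDM2 from binding p53 and so spares p53 from degradation, and the series looked for the genes that p53 targets. Poly(A) RNA was sequenced, and the labels do not say whether the triplicates came from separate cultures, so the spread behind each p-value is that of these libraries and may be technical.

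TGF-beta ligands are secreted as latent complexes and act once they are released from them. A freed ligand joins the type II receptor TGFBR2 to the type I receptor TGFBR1, whose kinase phosphorylates SMAD2 and SMAD3. These enter the nucleus with SMAD4 and change transcription, and SMAD7, which the pathway itself induces, blocks the receptor. In retinal pigment epithelium the pathway is known for driving epithelial cells towards a mesenchymal, matrix-producing state, and TGF-beta 2 is a prominent form of the ligand in the eye.

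CDKN1A, which encodes the p53-induced inhibitor p21, had 60.5 ± 2.34 RPKM (reads per kb of gene and M reads of library) in Nutlin-3 libraries and 8.36 ± 0.463 RPKM in DMSO libraries (mean ± SD, n = 3 each), and the proliferation marker MKI67 had 7.45 ± 0.356 RPKM in Nutlin-3 and 27.3 ± 0.817 RPKM in DMSO libraries. The library sizes behind the RPKM were 30.4 to 35.8 M reads in Nutlin-3 and 29.8 to 42.3 M reads in DMSO. Of 10 markers of retinal pigment epithelium, TTR was at 0 in every library and RPE65, RLBP1, PMEL, TYR, SERPINF1 and LRAT stayed under the expression filter, while OTX2, MITF and BEST1 passed it, so the line carries few defining markers of that tissue. Their summed level was 2.87 to 3.17 RPKM in Nutlin-3 and 3.29 to 3.73 RPKM in DMSO libraries. Markers of leukocytes, endothelium and other epithelia (PTPRC, CDH5 and EPCAM) summed to between 0.00229 and 0.00287 RPKM in Nutlin-3 and between 0.00151 and 0.00348 RPKM in DMSO libraries, with CDH5 at 0 in all of them. The keratin genes KRT8 and KRT18, filament genes of simple epithelia, rose to 1.68 and 1.74 times their DMSO levels (limma adjusted p = 1.39e-04 and 3.64e-04). The mesenchymal filament gene VIM had 444.9 ± 15.5 RPKM in Nutlin-3 and 473.8 ± 24.1 RPKM in DMSO libraries. It was not called by limma, but was called lower by limma voom (adjusted p = 0.0466). MKI67 and OTX2 fell and KRT8 and KRT18 rose with the treatment, and their part in the results below was not tested. In bulk RNA, fewer cells of a kind and less RNA per cell cannot be told apart.

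The sequences upstream of the start sites are shown for the 3 genes on which the results turn: TGFB2, with the largest rise, SMAD3, with the largest fall, and TGFB1, the second ligand that rose. Each is the 250 bases before the RefSeq start (GRCh38.p14, given 5′ to 3′ on the gene's strand), from chr1:218345086-218345335 (plus strand) for TGFB2, chr19:41353923-41354172 (minus strand) for TGFB1 and chr15:67065352-67065601 (plus strand) for SMAD3, the first of 5 windows listed for that gene. Capitals mark the GC box GGGCGG, the TATA box TATAAA, the E-box CACGTG and the core TGACG of a cAMP response element (CRE), each on either strand.
TGFB2: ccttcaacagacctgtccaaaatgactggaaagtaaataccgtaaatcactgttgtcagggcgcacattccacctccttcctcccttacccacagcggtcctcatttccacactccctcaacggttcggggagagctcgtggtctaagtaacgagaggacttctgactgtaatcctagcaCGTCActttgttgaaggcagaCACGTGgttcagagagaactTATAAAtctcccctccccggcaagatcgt
TGFB1: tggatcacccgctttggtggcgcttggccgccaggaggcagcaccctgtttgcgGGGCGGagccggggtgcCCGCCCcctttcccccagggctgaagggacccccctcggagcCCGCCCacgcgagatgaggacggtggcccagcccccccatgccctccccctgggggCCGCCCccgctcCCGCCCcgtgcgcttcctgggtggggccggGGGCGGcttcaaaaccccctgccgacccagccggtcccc
SMAD3: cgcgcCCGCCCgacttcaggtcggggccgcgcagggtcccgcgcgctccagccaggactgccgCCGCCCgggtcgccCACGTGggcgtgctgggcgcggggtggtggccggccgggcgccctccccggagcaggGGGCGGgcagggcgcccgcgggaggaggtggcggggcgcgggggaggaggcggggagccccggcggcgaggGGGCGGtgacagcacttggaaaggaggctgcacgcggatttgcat
The TGFB2 window held 1 TATA box, 1 E-box and 1 CRE core and no GC box. The TGFB1 window held 6 GC boxes and the SMAD3 window 4 GC boxes and 1 E-box, and neither held a TATA box. Over the first window of each of 27305 genes, 42.3% held a GC box, 11.1% a TATA box, 6.49% an E-box and 21.7% a CRE core. The GC content was 50.4% for TGFB2, 76.8% for TGFB1 and 80.8% for SMAD3, against a median of 58% over all windows. For each motif only the first window listed per gene was searched, and some of the 10 genes have further windows. A full p53 response element, searched by its consensus on either strand, was in none of the 10 genes' first windows and in 0.0293% of all windows searched. A single p53 half-site was in the TGFB3 window, with 1 match, and in 5.53% of all windows. The SMAD box GTCTAGAC was in none of the 10, and in 0.176% of all windows. The shorter SMAD motif CAGAC, which is common, had 2 matches each in TGFB2, TGFB3 and SMAD7 and 1 in TGFBR1, and was in 37.8% of all windows. A match here is a description of these letters only, and no match says nothing of sites elsewhere.

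In Nutlin-3 libraries the ligand genes TGFB2 and TGFB1, the receptor gene TGFBR2 and SMAD2 rose, and SMAD3 and SMAD4 fell. TGFB2 had 2.19 times its DMSO level and SMAD3 70.7% of it, and the other 8 genes moved less than these. In the test across all genes, limma on log2(RPKM + 0.05), 9 of the 10 genes passed the filter of a mean of 0.05 RPKM and TGFBR3 did not. Of the 9, 4 rose and 2 fell at an adjusted p under 0.05, and TGFB3, TGFBR1 and SMAD7 were not called. Among all 22859 genes tested, 34.9% were called, 18.3% as higher and 16.6% as lower in Nutlin-3. The share depends on the filter. At a mean of 0.5 RPKM or more, which TGFB3 does not reach either, 6256 of 12212 genes were called, a larger share. The median absolute log2 change of the 9 was 0.14, and that of all tested genes was 0.22. The RPKM of the groups did not overlap for 7 of the 10 genes, against 49.7% of all tested genes. The 7 include TGFBR3, which was under the filter and so is not among the tested genes. limma voom on the reads recovered from the RPKM, which does not need the RPKM filter, tested all 10 and called 7, 4 as higher and 3 as lower, against 49.4% of 20883 genes, 25.5% as higher and 23.9% as lower. With so few members, these shares are given as a description.

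**Figure D1:**
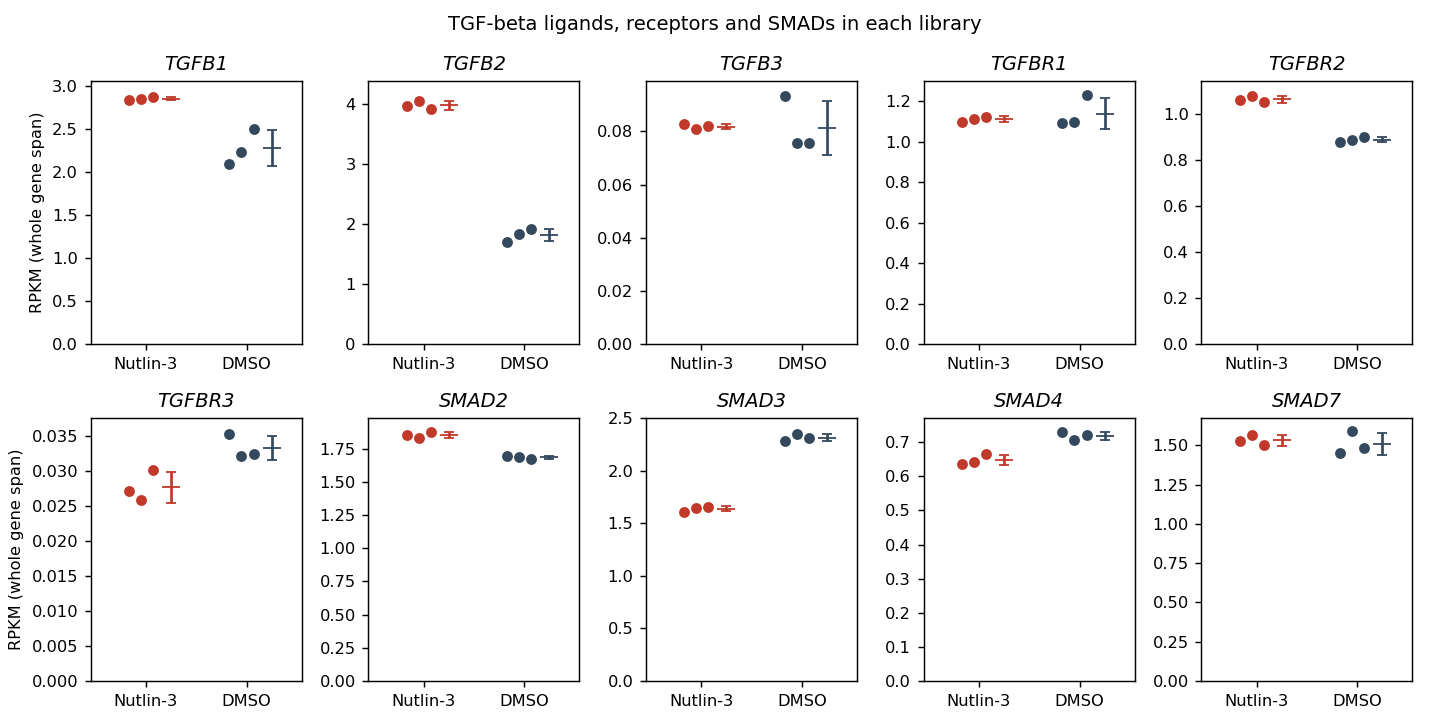
RPKM of the 10 genes (y axes from 0, one scale per gene) in each of the 3 Nutlin-3 libraries (red) and 3 DMSO libraries (dark blue), with mean and SD beside the points. TGFB2 sits at 3.91 to 4.06 RPKM in Nutlin-3 against 1.71 to 1.91 RPKM in DMSO, and SMAD3 at 1.61 to 1.65 RPKM against 2.28 to 2.35 RPKM. The groups overlap for TGFB3, TGFBR1 and SMAD7.

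The deposited RPKM divide reads by the whole span of a gene, introns included, so long genes such as TGFBR3 and SMAD3 carry low values for their reads and RPKM are not compared between genes below. Levels of different genes are compared as reads per kb of the principal transcript and M reads. Whether the reads counted include those of introns is not stated, so comparisons between genes carry that limit.

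TGFB2 (ENSG00000092969, chromosome 1) encodes the ligand TGF-beta 2. It had 3.96, 4.06 and 3.91 RPKM in the Nutlin-3 libraries, against 1.71, 1.83 and 1.91 RPKM in the DMSO libraries, resting on 11704 to 14299 reads and on 5368 to 7103 reads. Every Nutlin-3 library was above every DMSO library by a wide margin, and the gap was far larger than the spread inside either group. The log2 fold change was 1.11 (SE 0.047, limma adjusted p = 1.56e-04) on RPKM and 1.13 (SE 0.039, adjusted p = 1.93e-13 by limma voom) on reads. Of the 4184 genes called as higher, 143 rose by at least as much. An RNA that lies in 26.6% of the exon length of TGFB2 on the same strand, TGFB2-OT1, was not analysed here, and reads of that stretch cannot be told apart. The antisense gene TGFB2-AS1 had 15 to 17 reads in Nutlin-3 and 13 to 18 in DMSO libraries and was not called (log2 fold change 0.10, limma adjusted p = 0.659).

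TGFB1 (ENSG00000105329, chromosome 19) encodes TGF-beta 1, the most widely expressed form of the ligand. It had 2.84, 2.85 and 2.87 RPKM in Nutlin-3 libraries, against 2.10, 2.24 and 2.50 RPKM in DMSO libraries. The groups did not overlap, the Nutlin-3 libraries lay close together, and DMSO replicate 3 was nearest to them. The log2 fold change was 0.32 (SE 0.067, limma adjusted p = 0.0171), and 0.33 (adjusted p = 2.08e-05) by limma voom. The call on RPKM was lost without any 1 of Nutlin-3 replicates 1, 2 and 3 or DMSO replicate 2, with adjusted p from 0.0528 to 0.0583, while the size stayed between 0.27 and 0.39 without any 1 library. Over all alternatives the adjusted p ran from 2.08e-05 to 0.0583. TGFB1 shares 6.64% of its exon length with HNRNPUL1 on the opposite strand, which fell (log2 fold change -0.41, limma adjusted p = 1.62e-03).

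TGFB3 (ENSG00000119699, chromosome 14) encodes the least abundant ligand here. It had 0.0827, 0.0808 and 0.0819 RPKM in Nutlin-3 libraries, against 0.0931, 0.0755 and 0.0756 RPKM in DMSO libraries, from 56 to 98 reads per library. The Nutlin-3 values lay inside the DMSO range, and the 95% confidence interval of the log2 fold change ran from -0.25 to 0.27.

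Per length, the 3 ligand transcripts together came to 133.5 ± 1.26 in Nutlin-3 and 79.8 ± 5.79 in DMSO libraries (reads per transcript kb and M, SD, n = 3 each). TGFB2 made up 59.0%, 59.6% and 58.5% of the sum in Nutlin-3 libraries, against 45.5%, 45.8% and 44.1% in DMSO libraries. TGFB2 was thus the most abundant ligand transcript in every Nutlin-3 library and TGFB1 in every DMSO library. TGFB3 held 0.605% ± 0.0123 in Nutlin-3 and 1.02% ± 0.195 in DMSO libraries. The 2-sided exact permutation test of the TGFB2 share gave p = 0.1, which is as low as a design of 3 against 3 can reach, and 0.1 after adjustment over the 4 ratios tested.

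**Figure D2:**
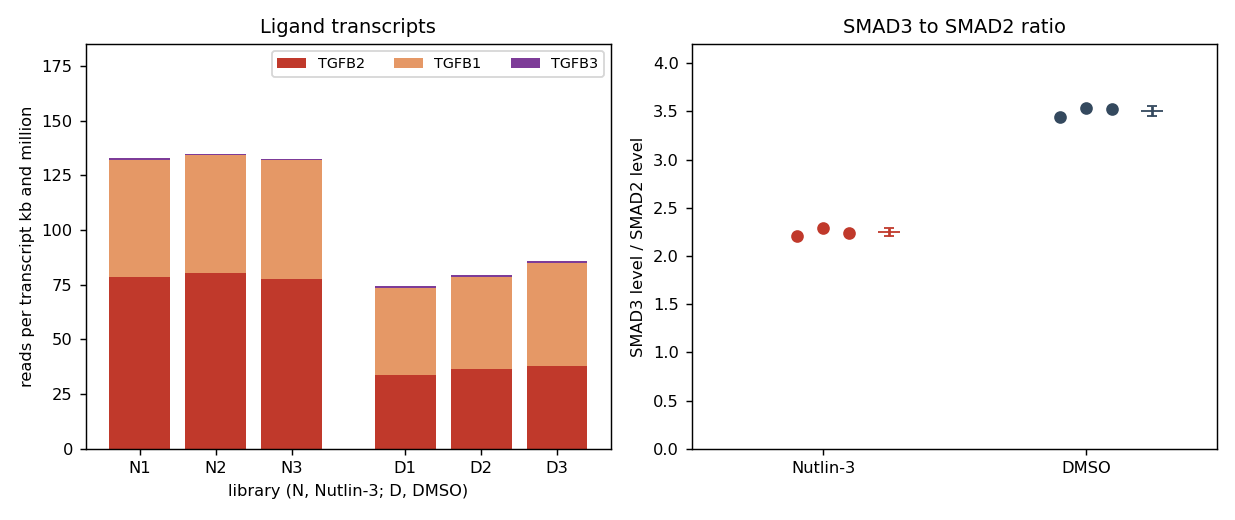
Left, stacked level of the ligand transcripts (y axis, reads per kb of principal transcript and M reads) in each Nutlin-3 (N1 to N3) and DMSO (D1 to D3) library, with TGFB2 at 77.5 to 80.4 in Nutlin-3 against 33.8 to 37.9 in DMSO. Right, SMAD3 level over SMAD2 level per library with mean and SD, 2.21 to 2.29 in Nutlin-3 against 3.44 to 3.54 in DMSO.

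TGFBR2 (ENSG00000163513, chromosome 3) encodes the type II receptor, the kinase that binds ligand first. It had 1.06, 1.08 and 1.05 RPKM in Nutlin-3 libraries, against 0.877, 0.886 and 0.896 RPKM in DMSO libraries. The groups were apart and each was narrow. The log2 fold change was 0.25 (SE 0.026, limma adjusted p = 1.78e-03). TGFBR1 (ENSG00000106799, chromosome 9), the type I receptor that phosphorylates the SMADs, had 1.10, 1.11 and 1.12 RPKM in Nutlin-3 libraries, against 1.09, 1.10 and 1.23 RPKM in DMSO libraries. The groups overlapped, with DMSO replicate 3 the highest of all, and the interval of the log2 fold change was -0.17 to 0.10. The TGFBR2 to TGFBR1 ratio was 2.35 ± 0.0447 in Nutlin-3 and 1.92 ± 0.110 in DMSO libraries, without overlap (2-sided exact permutation p = 0.1, the smallest possible).

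TGFBR3 (ENSG00000069702, chromosome 1) encodes betaglycan, a co-receptor that presents ligand, TGF-beta 2 above all, to TGFBR2. It had 0.0272, 0.0258 and 0.0301 RPKM in Nutlin-3 libraries, against 0.0354, 0.0322 and 0.0325 RPKM in DMSO libraries, from 194 to 209 reads and 217 to 338 reads. The groups did not overlap, but the highest Nutlin-3 library came close to the lowest DMSO library. On reads the log2 fold change was -0.28 (SE 0.089, limma voom adjusted p = 0.0142). That call was lost without DMSO replicate 1 (adjusted p = 0.0590) and without Nutlin-3 replicate 2 (adjusted p = 0.0898), and limma on RPKM without a filter did not call it (-0.10, adjusted p = 0.188). Over its alternatives the adjusted p ran from 0.0103 to 0.188.

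SMAD3 (ENSG00000166949, chromosome 15), the receptor-regulated SMAD that binds DNA directly, had 1.61, 1.65 and 1.65 RPKM in Nutlin-3 libraries, against 2.28, 2.35 and 2.31 RPKM in DMSO libraries. All Nutlin-3 libraries lay well below all DMSO libraries, with little spread in either group. The log2 fold change was -0.49 (SE 0.025, limma adjusted p = 2.30e-04), and -0.50 (adjusted p = 5.14e-10) by limma voom. Among the 3791 genes called as lower, 1566 fell by at least as much.

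SMAD2 (ENSG00000175387, chromosome 18) is the other SMAD that the TGF-beta receptor phosphorylates, and its main form does not bind DNA by itself. It had 1.86, 1.83 and 1.88 RPKM in Nutlin-3 libraries, against 1.69, 1.69 and 1.67 RPKM in DMSO libraries. The groups were apart by a small step. The log2 fold change was 0.14 (SE 0.023, limma adjusted p = 9.21e-03). It was 0.14 with median-of-ratios scaling and 0.15 under quantile normalization. It was not fitted with the summed recovered reads as library sizes, and a change this small may depend on that choice. Within each library, SMAD3 stood at 2.25 ± 0.0402 times the SMAD2 level in Nutlin-3 and at 3.50 ± 0.0530 times it in DMSO libraries. The ratio did not overlap between the groups (2-sided exact permutation p = 0.1, the smallest possible). Both sizes rest on the transcript lengths chosen, but their order between the groups does not.

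SMAD4 (ENSG00000141646, chromosome 18), the shared partner of the receptor-regulated SMADs, had 0.635, 0.642 and 0.664 RPKM in Nutlin-3 libraries, against 0.729, 0.707 and 0.721 RPKM in DMSO libraries. The groups were apart, with a gap wider than the range of either group. The log2 fold change was -0.14 (SE 0.032, limma adjusted p = 0.0219), and -0.15 (adjusted p = 2.26e-03) by limma voom. The call was lost under quantile normalization (-0.095, adjusted p = 0.0543) and without any 1 of Nutlin-3 replicates 1 and 2 and DMSO replicates 1 and 3, with adjusted p from 0.0603 to 0.0798. Over all alternatives the adjusted p ran from 2.26e-03 to 0.0893. A second annotated gene on the same strand covers 7.37% of the SMAD4 exon length.

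SMAD7 (ENSG00000101665, chromosome 18), the inhibitory SMAD that TGF-beta signalling induces, had 1.52, 1.57 and 1.50 RPKM in Nutlin-3 libraries, against 1.45, 1.59 and 1.48 RPKM in DMSO libraries. The groups overlapped fully, and the interval of the log2 fold change was -0.085 to 0.13. Relative to SMAD3 it stood at 0.310 ± 0.00752 in Nutlin-3 and 0.216 ± 0.00718 in DMSO libraries (2-sided exact permutation p = 0.1, the smallest possible), with SMAD3 as the gene of the pair that was called.

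**Figure D3:**
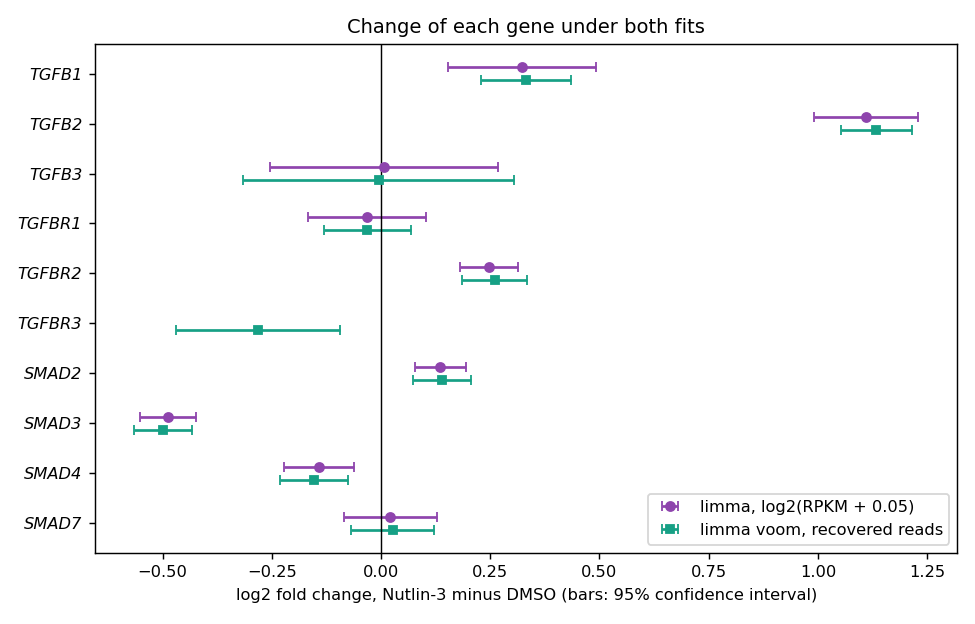
log2 fold change (x axis, Nutlin-3 minus DMSO) of each gene with its 95% confidence interval, from limma on log2(RPKM + 0.05) (circles) and limma voom on recovered reads (squares). TGFB2 lies at 1.11 and 1.13 and SMAD3 at -0.49 and -0.50, and the intervals of TGFB3, TGFBR1 and SMAD7 hold 0. TGFBR3 was under the RPKM filter and has the second fit only.

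By level per transcript length, the order in Nutlin-3 libraries was TGFB2 (78.8 ± 1.46), TGFB1 (53.9 ± 0.326), SMAD3 (34.4 ± 0.479), TGFBR2 (20.1 ± 0.263), SMAD2 (15.3 ± 0.184), SMAD7 (10.7 ± 0.227), SMAD4 (8.64 ± 0.204), TGFBR1 (8.56 ± 0.106), TGFBR3 (0.969 ± 0.0770) and TGFB3 (0.807 ± 0.00943), in reads per transcript kb and M. SMAD4 and TGFBR1 overlapped between libraries, in DMSO too, while the other neighbours did not. Per kb of principal transcript, the order in DMSO libraries was SMAD3 (48.7 ± 0.671), TGFB1 (43.0 ± 3.89) and TGFB2 (36.0 ± 2.04), followed by the same genes in the same places as in Nutlin-3. The first places in DMSO depend on the length used. Per kb of merged exons, chosen after seeing the data, TGFB1 (36.8 ± 3.33) and TGFB2 (34.7 ± 1.97) came before SMAD3 (33.4 ± 0.460) there, with SMAD3 below TGFB1 in all 3 DMSO libraries. Per kb of gene span SMAD3 was first in the mean, but below TGFB1 in DMSO replicate 3. Per kb of transcript or of merged exons TGFB2, TGFB1 and SMAD3 kept that order in all Nutlin-3 libraries.

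The profile of TGFB2 over the 6 libraries was compared with those of 12211 genes that averaged 0.5 RPKM or more, by the root mean square difference of log2 values centred on each gene. The nearest were COL4A1, a basement membrane collagen, at 0.020, TAGLN, an actin-binding protein of contractile cells, at 0.033, and an ID without a symbol in the tables used (ENSG00000272761), at 0.043. COL4A1 had 2.74 ± 0.0675 RPKM in Nutlin-3 and 1.26 ± 0.0754 RPKM in DMSO libraries, and TAGLN had 74.6 ± 2.60 RPKM in Nutlin-3 and 34.7 ± 1.37 RPKM in DMSO libraries. The likeness is over these 6 libraries only. Both genes also stand in the list of TGF-beta target genes below. Between Nutlin-3 and DMSO groups, nearness mostly picks genes whose change is of like size. A link between these genes and TGFB2 was not tested.

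Of 83 other genes of the pathway in 6 lists, each counted once, 74 were tested, of which 33 rose, 7 fell and 34 were not called. Of all genes tested by limma, 18.3% were called as higher and 16.6% as lower. Among genes averaging 0.5 RPKM or more, 6256 of 12212 were called in either direction. Genes of latency and activation and target genes of the pathway carried most of the rises. LTBP2 and ITGAV, the latter named for this overlap only, rose and stand in both lists, so the counts by list share them. The lists were chosen with earlier results of these data known, so their counts are a description and not independent of the data. Of 25 tested target genes, 19 rose and 0 fell by limma, where 18.3% of all tested genes were called as higher and 16.6% as lower. Their log2 fold changes had a median of 0.48, against 0.0010 over all tested genes. limma voom called 23 of 26 target genes as higher and 2 as lower, where 25.5% of all genes were called as higher and 23.9% as lower, and these 2 were the elastin gene ELN, which was under the RPKM filter, and LMCD1. At an unadjusted p under 0.05, a looser threshold, limma put 22 target genes higher and 0 lower. The share of all tested genes past that threshold was not computed, and the 18.3% is not its counterpart. COL4A1 and TAGLN, described above, each had a log2 fold change of 1.10 (limma adjusted p = 1.78e-04 and 1.37e-04). TAGLN shares 11.4% of its exon length with a gene on the opposite strand. The 6 not called were SMAD7, CCN2, JUNB, TSC22D1, PDGFB and LMCD1, all but SMAD7 named after their values were seen. Their log2 fold changes lay between -0.16 and 0.57.

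Of 14 tested genes listed under latency and activation of the ligand, 10 rose and 0 fell by limma, against 18.3% and 16.6% of all tested genes. The median of their log2 fold changes was 0.45. On reads 12 of 15 rose and 1 fell, against 25.5% and 23.9% of all genes. The 1 was LTBP4, named after its value was seen. At an unadjusted p under 0.05 limma had 11 higher and 1 lower, with no share of all genes computed at that threshold. LRRC32, also called GARP, which tethers latent TGF-beta to the cell surface, had 0.189, 0.205 and 0.169 RPKM in Nutlin-3 libraries, against 0.0358, 0.0431 and 0.0350 RPKM in DMSO libraries. The groups were far apart, although the gene rested on 68 to 97 reads and on 15 to 20 reads. Its log2 fold change was 1.43 (SE 0.10, limma adjusted p = 5.51e-04), and, as a low gene, it moved with the pseudocount, from 0.35 at 0.5 to 2.04 at 0.01, and was 2.29 on reads. FBN1, the microfibril protein fibrillin-1 that anchors latent complexes, had 6.28 ± 0.134 RPKM in Nutlin-3 and 3.51 ± 0.175 RPKM in DMSO libraries. LTBP2, a microfibril protein of the latent TGF-beta binding protein family, had 1.97 ± 0.0512 RPKM in Nutlin-3 and 1.09 ± 0.0487 RPKM in DMSO libraries. Both rose (log2 fold change 0.83 and 0.82, limma adjusted p = 2.36e-04 and 2.28e-04).

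**Figure D4:**
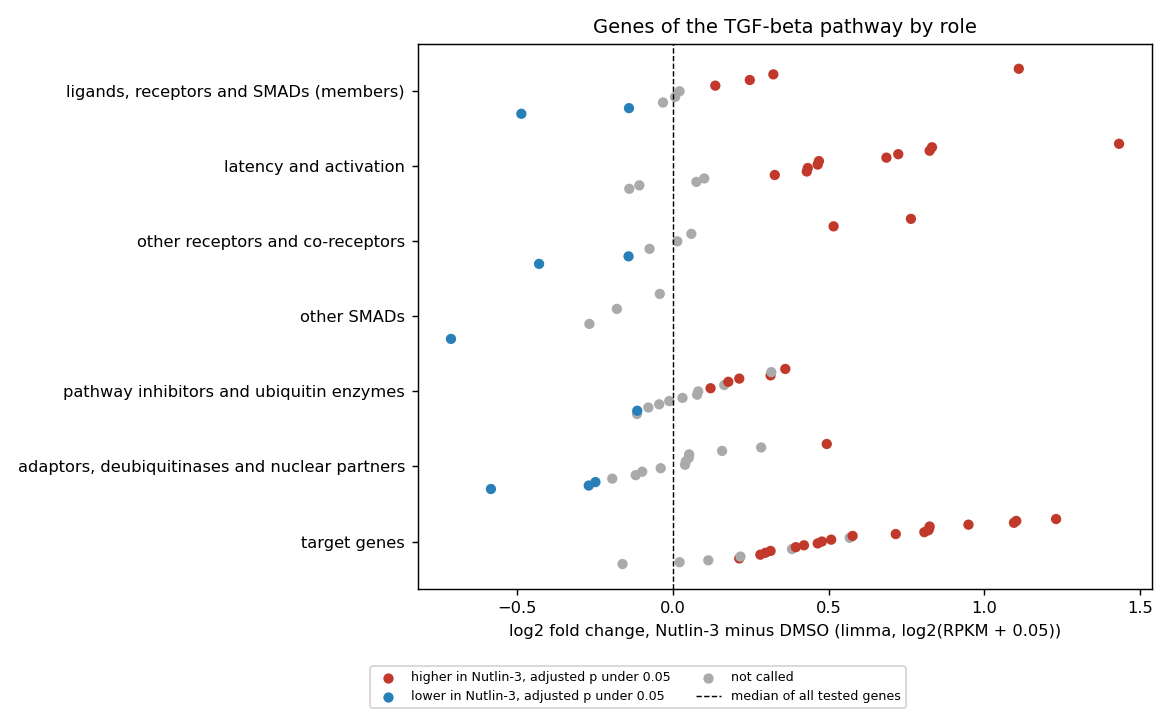
log2 fold change (x axis, Nutlin-3 minus DMSO, limma on log2(RPKM + 0.05)) of each tested gene, in rows by role, coloured by call, with the median of all tested genes as a dashed line. In the bottom row 19 of 25 target genes were called as higher and 0 as lower, and in the row of latency and activation 10 of 14 were called as higher and 0 as lower.

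The other roles held fewer calls, and are read against the 18.3% of all genes called as higher and 16.6% as lower by limma, and 25.5% and 23.9% on reads. Among 7 tested receptors and co-receptors 2 rose and 2 fell, with a median of 0.014. VASN, a membrane protein that binds and traps TGF-beta, had 9.01 ± 0.183 RPKM in Nutlin-3 and 5.29 ± 0.269 RPKM in DMSO libraries (log2 fold change 0.76, limma adjusted p = 2.84e-04). BAMBI, a decoy receptor without a kinase domain, rose to 1.43 times its DMSO level. The activin type II receptor gene ACVR2B fell to 68.1% of its DMSO level and NRP1, a co-receptor of several growth factors, to 90.5%. The NRP1 call was lost without any 1 of 4 libraries, Nutlin-3 replicates 1 and 3 and DMSO replicates 2 and 3, with adjusted p from 0.0529 to 0.0582.

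Of the 4 other SMADs, 0 rose and 1 fell by limma, and 0 rose and 3 fell on reads. The counts by limma at an unadjusted p under 0.05 were also 0 and 3, with no share of all genes computed there. SMAD6, the inhibitory SMAD of the BMP branch, had 0.142, 0.179 and 0.166 RPKM in Nutlin-3 libraries, against 0.297, 0.302 and 0.292 RPKM in DMSO libraries. The groups were apart, and the log2 fold change was -0.71 (SE 0.079, limma adjusted p = 2.04e-03). Both inhibitory SMADs were thus measured, and SMAD7 was not called while SMAD6 fell. The difference between their changes was not tested.

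Among 15 tested inhibitors and ubiquitin enzymes 5 rose and 1 fell, and their log2 fold changes had a median of 0.081. FKBP1A, which binds the type I receptor and keeps it inactive, rose to 1.29 times, SKIL, a SMAD co-repressor and target gene, to 1.16 times and PMEPA1, a membrane inhibitor and target gene, to 1.33 times the DMSO level. TRIM33, a ubiquitin ligase that acts on SMAD4, stood at 0.532 ± 0.00647 RPKM in Nutlin-3 and 0.581 ± 0.00453 RPKM in DMSO libraries. Its fall (limma adjusted p = 0.0298) was lost without any 1 of the 6 libraries, with adjusted p from 0.0714 to 0.0958, and under quantile normalization (adjusted p = 0.143), and over all alternatives the adjusted p ran from 9.36e-03 to 0.143. The PMEPA1 call (adjusted p = 0.0227) was lost without a filter (0.0520) and without any 1 of Nutlin-3 replicates 1 and 2 and DMSO replicates 1 and 2, with adjusted p from 0.0614 to 0.0725. Without any 1 library, 2 or 3 of this list were called as higher.

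Of 14 adaptors, deubiquitinases and nuclear partners, 1 rose, 3 fell and 10 were not called, and on reads 1 rose and 6 fell. The share of falls by limma was near the 16.6% of all tested genes. Without DMSO replicate 1 the count of falls was 5. DAB2, an endocytic adaptor that links receptors to SMADs, rose to 1.42 times its DMSO level. UCHL5, a deubiquitinase that SMAD7 brings to the receptor, had 0.530, 0.552 and 0.600 RPKM in Nutlin-3 libraries, against 0.908, 0.836 and 0.852 RPKM in DMSO libraries. That is a log2 fold change of -0.58 (SE 0.057, limma adjusted p = 1.42e-03) with groups apart. XPO4, the exportin that carries SMAD3 out of the nucleus, fell to 81.2% and the import receptor gene IPO7 to 84.0% of the DMSO level.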

How the data were processed

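Per the labels' protocols, stranded poly(A) libraries were made from RPE1 cells given 2.5 µM Nutlin-3 or DMSO for 24 h. CASAVA 1.8.2, TopHat2, edgeR and the build hg19 are named in the submitters' processing notes, without roles, and the counter, annotation and use of strand were not stated. The deposited unit is RPKM, computed by the authors, 1 column per library, and 0 columns were left unmapped.

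Low RPKM times the gene span in GENCODE 29, introns included, came to whole reads (within 0.01) for 89.9% to 90.2% of values per library, against 24.8% to 25.7% with merged exon length. Reads were recovered with that span, or with the nearest length that gave whole reads in all libraries, as for SMAD2, SMAD4 and SMAD7. Symbols matched 52338 of 57773 IDs. GENCODE 29 is on another build, so it gave names, lengths and overlaps only.

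Differences were tested with limma 3.58.1 (R 4.3.3, mean-variance trend, Benjamini-Hochberg) on log2(RPKM + 0.05), keeping genes that averaged 0.05 RPKM or more. Fold changes on this scale understate low genes, and times or percent of the DMSO level are ratios of mean RPKM. limma voom on reads used genes averaging 10 reads or more and the library sizes behind the RPKM. No fit used the summed recovered reads as library sizes, so small changes such as those of SMAD2, SMAD4 and TGFBR1 were not tested on that basis. On simulated data with few changed genes, limma on log2(RPKM + 0.05) made false calls more often than its threshold allows and limma voom did not, so the members were tested with both. All members that limma called were called by limma voom in the same direction. Levels per length used the principal GENCODE 29 transcript that spans no more than 1.1 times the length behind the RPKM.

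Members, lists and tests were chosen with earlier results of these data known. Named genes are the members, up to 3 largest rises and falls called per list, CDKN1A and MKI67 as checks (MDM2 and RRM2 were computed too), the 3 profiles nearest to TGFB2, and others marked in the text. One gene that this rule names is not reported here. Replicates were compared first: within groups their reads differed by a chi-square of 1.91 to 5.05 per gene, above sampling noise. Each library was counted as 1 replicate. A spread of this kind does not tell separate cultures from technical repeats.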

Additional observations from a re-analysis of the deposited data

How the results depend on the processing

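TGFB2, TGFBR2 and SMAD3 kept their direction and call under 9 other settings and without any 1 of the 6 libraries, with adjusted p at most 8.71e-03, 0.0271 and 9.60e-03. Without any 1 library the log2 fold change was 0.27 to 0.39 for TGFB1, -0.34 to -0.23 for TGFBR3 and -0.16 to -0.13 for SMAD4, each losing its call in some of them. The same ranges were -0.025 to 0.070 for TGFB3, -0.060 to 0.022 for TGFBR1 and -0.0044 to 0.058 for SMAD7, which are uncalled and change sign. On reads TGFB3 was at -0.0055. Without a filter TGFBR3 was at -0.10, and under quantile normalization SMAD4 was at -0.095, both uncalled. The cause was not tested.

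No pairing of the libraries by replicate number was detected: the correlations of deviations between same-numbered libraries were -0.0249, -0.0145 and -0.0133, and no library correlated best with its own number. So few libraries cannot show that they were unpaired. With the replicate number as a block, 5306 genes were called, against 7975 without it, SMAD2 (0.14) and SMAD4 (-0.14) were not called, and in the list of inhibitors 2 genes were called as higher and 0 as lower. The calls over all genes numbered 5811 to 6696 without any 1 library.

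The place of SMAD3 among members in DMSO turns with the length used, as given above. The ratio differences depend on that length too, not in direction: with the whole gene span they were -0.491 for SMAD3 to SMAD2, 0.175 for TGFBR2 to TGFBR1 and 0.284 for SMAD7 to SMAD3, and with merged exon length, chosen after seeing the data, -2.59 and 0.121 for the first and last. On reads the falls numbered 1 for latency and activation, 3 for other SMADs, 2 for inhibitors, 6 for adaptors and 2 for target genes. Without any 1 library, an alternative added after seeing the data, the falls were 0 to 1 for latency, 1 to 2 for receptors, 0 to 0 for inhibitors and 3 to 5 for adaptors, and the rises 2 to 3 for inhibitors. TGFB3, with 56 to 98 reads per library, is limited by depth.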
